A study of Mus musculus with 21 samples.

Results

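The 7 genes described here encode cytosolic and mitochondrial heat shock proteins: Hsp90aa1, Hsp90ab1, Hspa8, Dnaja1, Hspa9, Hspd1 and Hspe1. They were listed by symbol, and all 7 were found by Ensembl identifier among the 9657 genes with a value. Wild-type (WT) primary mouse hepatocytes were sampled at Day 1 after PBS, the vehicle control, or 1 of 3 RNA interference (RNAi) agents against Ttr, which encodes the plasma carrier transthyretin. The agents are labelled TTR-1236, TTR-1186 and Reference 4, and each was given at 0.2 µM and at 2 µM, so that 7 groups of 3 libraries resulted. QuantSeq 3′-mRNA libraries were made from total RNA; this method reads from the polyadenylated end of a transcript. Nothing in the labels tells whether replicates were independent cultures or animals, and a p-value here measures only the spread between these libraries, which may be technical. The strain, sex and age of the mice and the structures of the 3 agents are not given in the labels used here.

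Heat shock proteins are molecular chaperones: they bind unfolded or partly folded proteins, and most of the abundant ones work in unstressed cells. In the cytosol, HSP70 (here the constitutive form Hspa8) takes up a client with the help of a J-domain partner such as Dnaja1 and can pass it to HSP90, the inducible Hsp90aa1 or the constitutive Hsp90ab1, which matures kinases and steroid receptors. In mitochondria, Hspa9 (mortalin) helps to pull imported proteins through the inner membrane, and Hspd1 (HSP60) with its lid Hspe1 (HSP10) forms the chamber in which they fold. Hepatocytes are rich in both compartments' clients, since they secrete much of the plasma protein and hold many mitochondria.

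The genes lie on different chromosomes, except for one neighbouring pair. In GRCm38 coordinates, Hsp90aa1 is on chromosome 12 (110690605 to 110702728, minus strand) and Hsp90ab1 on chromosome 17 (45567775 to 45573271, minus). Hspa8 is on chromosome 9 (40800984 to 40810087, plus) and Dnaja1 on chromosome 4 (40722150 to 40737149, plus). Hspd1 (55077835 to 55088243, minus) and Hspe1 (55088132 to 55091307, plus) stand head to head on chromosome 1 and overlap at their starts. Of the 7 genes, 3 (Hspd1, Hspe1 and Dnaja1) matched the RefSeq promoter windows (build GRCm38.p6), which run from 250 bases before to 50 bases after a start. Heat shock factors bind inverted repeats of GAA, and the Hspe1 window and 1 of the 2 Hspd1 windows held the same cluster of 3 overlapping matches to TTCNNGAA or GAANNTTC, 18 bases in all. The other Hspd1 window held none. The first match begins 89 bases before the Hspe1 start and the starts of these windows are not the same. The stretch is shown because it lies in a window of each gene, with the matches in capitals, as chr1:55088053-55088082 on the plus strand. In GENCODE M21 this stretch is also part of the first exon of a longer Hspd1 transcript.
Hspd1 and Hspe1: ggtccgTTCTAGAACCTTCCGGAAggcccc
The first Dnaja1 window held 1 match, GAANNTTC, beginning 124 bases before that start (chr4:40722333-40722362, plus strand), and the other 2 Dnaja1 windows held none.
Dnaja1: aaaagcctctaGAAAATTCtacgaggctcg
Both motifs read the same on both strands. Of all 32851 windows of 300 bases, 8.52% held TTCNNGAA, 7.86% held GAANNTTC and 15.1% held either, so a match by itself is common and is a description of the letters.

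Genes of this family have many processed pseudogenes, copies of the spliced transcript set back into the genome. Those that were measured may bear on the values of every member but Hspe1, and those without a value were not looked at. By alignment of each measured pseudogene to all coding transcripts, 18 of the 744 measured pseudogenes had 1 of the 7 genes as their best match: 6 for Hspa8, 4 for Hsp90aa1, 3 for Dnaja1, 2 each for Hsp90ab1 and Hspd1, 1 for Hspa9 and 0 for Hspe1. A read from a stretch that is the same in both could come from either, and reads of the gene and of its copy can then not be told apart. The sequences that follow show how close some copies are. They are the last 60 coding bases of a gene, stop codon included, beside the same stretch of its most abundant pseudogene, with differing bases in capitals. For Hspa8 (chr9:40805058-40805117, plus strand) and Gm15459 (chr5:5781615-5781674, minus) the 60 bases are the same.
Hspa8 and Gm15459: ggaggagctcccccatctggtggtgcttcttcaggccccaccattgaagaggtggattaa
The same holds for Hsp90aa1 (chr12:110691540-110691599, minus) and Gm12346 (chr11:77295839-77295898, plus).
Hsp90aa1 and Gm12346: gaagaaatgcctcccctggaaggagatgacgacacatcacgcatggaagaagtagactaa
Hspd1 (chr1:55078288-55078347, minus) and Hspd1-ps3 (chr11:41500399-41500458, plus) differ at 2 of the 60 bases.
Hspd1: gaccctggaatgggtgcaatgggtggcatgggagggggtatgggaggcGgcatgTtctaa
Hspd1-ps3: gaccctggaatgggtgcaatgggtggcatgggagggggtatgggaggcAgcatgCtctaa
Over the whole alignment, Gm15459 was 99.7% identical to the Hspa8 transcript, Gm12346 99.5% to Hsp90aa1, Hspd1-ps3 98.95% to Hspd1 and Hspa9-ps1 92.4% to Hspa9. For Gm15459, 86.8% of all windows of 50 bases held no difference, against 60.7% for Hspd1-ps3 and 6.52% for Hspa9-ps1. These libraries read from the 3′ end, and the alignments stopped short of that end of the parent transcript. The bases left were 83 for Gm15459, 453 for Hspd1-ps3, 902 for Hspa9-ps1, 935 for Gm12346 and 2018 for the Dnaja1 copies. Where reads fell along these transcripts is not given, so how many lay in shared stretches is not known.

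The libraries held 14158740 to 37410773 reads in genes, and the lowest count of any of the 7 genes was 710 reads (Dnaja1, Reference 4 at 0.2 µM, replicate 2). Values are CPM, reads at a gene scaled to a common library total, and a level or a difference is on the CPM or the log2(CPM + 1) scale as stated. Ttr checks the labels: it was 2258 ± 84.7 CPM with PBS (SD, n = 3) and 7.09 to 19.2 CPM on average in the 6 treated groups. Of 11 hepatocyte markers 10 were measured, with a summed level of 12605 to 20747 CPM in every library. Of each of 4 other liver cell types 2 markers were measured, the highest sum being 184 CPM for macrophages (Cd68 and Csf1r). The other 6 macrophage markers listed, Adgre1 among them, were not found among the genes with a value. The libraries differed in mitochondrial ribosomal RNA, which took 0.278% to 3.73% of reads. It took 0.278% to 0.487% with TTR-1236 at 2 µM, 0.383% to 1.10% with Reference 4 at 2 µM, and 1.47% to 3.73% in all 9 libraries at 0.2 µM. PBS replicate 3 stood apart from PBS replicates 1 and 2, with 0.797% against 3.26% and 2.70%, and so did TTR-1186 at 2 µM replicate 2, with 0.622% against 1.95% and 2.21%. Where leaving out PBS replicate 3 moved a call, the value without it is given.

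Both cytosolic HSP90 genes were at their lowest with TTR-1236 and Reference 4 at 2 µM. Hsp90ab1, the constitutive form, was read at 4029, 3078 and 1571 CPM with PBS. At 2 µM it was at 1719.5, 1268 and 1276 CPM with TTR-1236, at 1731, 1513 and 1136 CPM with Reference 4, and at 2423, 2409 and 2826 CPM with TTR-1186. PBS replicate 3 lay inside the range of the TTR-1236 and Reference 4 libraries, and PBS replicates 1 and 2 lay above all 18 treated libraries. At 0.2 µM it was at 1993, 1431 and 1827 CPM with TTR-1236, at 2401, 1987 and 2782 CPM with TTR-1186, and at 2659, 2822 and 2288 CPM with Reference 4. The group means ran from 2893 ± 1239 CPM (SD, n = 3) with PBS, through Reference 4 at 0.2 µM, TTR-1186 at 2 µM, TTR-1186 at 0.2 µM, TTR-1236 at 0.2 µM and Reference 4 at 2 µM, down to 1421 ± 259 CPM with TTR-1236 at 2 µM; each group's range overlapped that of the next in this order.

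Hsp90ab1 fell with TTR-1236 at 2 µM against PBS, by 0.94 on the log2 scale (SE 0.243, adjusted p = 0.0287, limma across all 9657 genes with Benjamini-Hochberg adjustment), to 49.1% of the PBS mean. It was the 1 of the 7 genes to pass in this comparison, in which 6.33% of all genes passed. With Reference 4 at 2 µM the difference was -0.90 (SE 0.243, limma adjusted p = 0.0515). There 0 of the 7 genes passed by limma, against 2.25% of all genes, and 2 had an unadjusted p under 0.05, against 20.2% of all genes. By edgeR and by DESeq2, Hsp90ab1 was called. Of all genes, edgeR called 2.85% and DESeq2 7.54% in that comparison. In bulk RNA, fewer cells of a type and less RNA per cell cannot be told apart. The call with TTR-1236 ended when PBS replicate 1, PBS replicate 2, or TTR-1236 2 µM replicate 2 or 3 was left out, and in a fit on the 6 libraries compared (adjusted p from limma 0.0896 to 0.174). Calls over all genes were fewer in the same fits, at 0.507%, 0.476%, 2.13%, 0.652% and 0.228% in that order, against 6.33%. Without PBS replicate 3, the differences grew to -1.32 with TTR-1236 and -1.29 with Reference 4, both past the threshold; 16.4% and 13.2% of all genes passed in that fit. Same-numbered libraries of PBS and Reference 4 at 2 µM deviated together, and with the replicate number as a block Hsp90ab1 passed there (limma adjusted p = 0.0332), as did 2.98% of all genes.

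Hsp90aa1, the inducible form, was also lowest on average in those groups but passed no test. It was at 2441, 2063 and 854 CPM with PBS, at 1283, 1101 and 949 CPM with TTR-1236 at 2 µM, and at 1326, 1101 and 836 CPM with Reference 4 at 2 µM. PBS replicate 3 was below 19 of the other 20 libraries. In the remaining groups it ranged from 1225 to 1377 CPM (TTR-1236, 0.2 µM), 1412 to 2268 (TTR-1186, 0.2 µM), 1473 to 1781 (Reference 4, 0.2 µM) and 1294 to 2069 (TTR-1186, 2 µM). Against PBS the difference was -0.56 with TTR-1236 at 2 µM (95% interval -1.16 to 0.04, limma adjusted p = 0.248) and -0.61 with Reference 4 at 2 µM (-1.21 to -0.01, adjusted p = 0.245). Neighbouring groups overlapped in the order of means, except Reference 4 and TTR-1236 at 0.2 µM. Without PBS replicate 3 these became -1.02 and -1.07, and both passed (limma adjusted p = 0.00204 and 0.00236), beside the 16.4% and 13.2% of all genes.

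**Figure D1:**
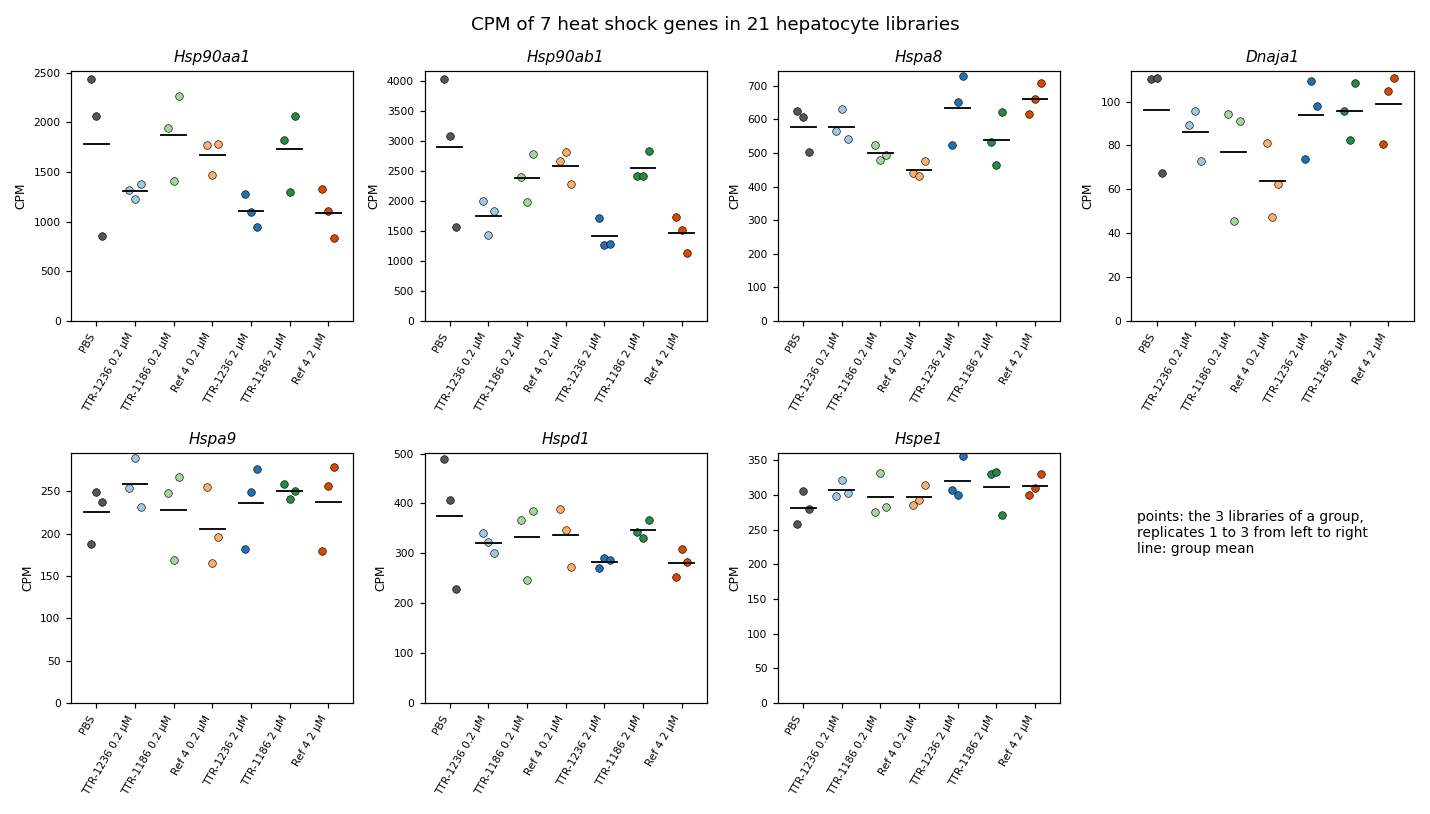
CPM of the 7 genes (linear axes from 0) in each of the 7 groups; points are the 3 libraries, replicates 1 to 3 from left to right, and lines are group means. Hsp90ab1 spans 1136 to 4029 CPM, and PBS replicate 3 lies well below the other PBS libraries for Hsp90aa1, Hsp90ab1 and Hspd1; Hspe1 stays between 258 and 356 CPM.

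Hspa8 and its partner Dnaja1 did not follow HSP90. Hspa8, the constitutive HSP70, was at 625, 607 and 503 CPM with PBS. It was at 440.3, 430.4 and 476 CPM with Reference 4 at 0.2 µM and at 616, 661 and 709 CPM with Reference 4 at 2 µM. All 3 libraries of Reference 4 at 0.2 µM were below every PBS library, and those at 2 µM overlapped PBS. How many of all genes lay apart in this way was not counted. The other groups ranged from 542 to 631 CPM (TTR-1236, 0.2 µM), 478 to 523 (TTR-1186, 0.2 µM), 525 to 730.4 (TTR-1236, 2 µM) and 466 to 622 (TTR-1186, 2 µM). In the order of group means, from 662 ± 46.4 CPM for Reference 4 at 2 µM to 449 ± 23.7 CPM for Reference 4 at 0.2 µM (SD, n = 3), that lowest group did not overlap its neighbour, TTR-1186 at 0.2 µM, and all other neighbours overlapped. Dnaja1, a J-domain protein that delivers clients to HSP70, was at 110.4, 111 and 67.5 CPM with PBS. It was at 80.9, 47.4 and 62.2 CPM with Reference 4 at 0.2 µM and at 80.7, 105 and 111 CPM with Reference 4 at 2 µM. Its lowest library, 45.3 CPM, was replicate 2 of TTR-1186 at 0.2 µM, and all neighbouring groups overlapped, between means of 63.5 ± 16.8 and 98.8 ± 15.9 CPM. Against PBS neither gene passed with any agent or dose; the differences nearest to doing so were those with Reference 4 at 0.2 µM, -0.36 for Hspa8 (limma adjusted p = 0.226) and -0.59 for Dnaja1 (adjusted p = 0.292).

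Of the 3 mitochondrial chaperones, none passed against PBS with all libraries fitted. Hspa9, which drives protein import, was at 188, 249.6 and 238.1 CPM with PBS. It was at 182, 249 and 277 CPM with TTR-1236 at 2 µM and at 179, 256 and 279 CPM with Reference 4 at 2 µM, so that these groups covered the PBS range. Its group means ran from 206 ± 45.7 CPM (Reference 4, 0.2 µM) to 258 ± 28.97 CPM (TTR-1236, 0.2 µM; SD, n = 3). Hspd1, the chaperonin, was at 488, 406 and 228 CPM with PBS, at 269.8, 291 and 287 CPM with TTR-1236 at 2 µM, and at 253, 308 and 283 CPM with Reference 4 at 2 µM. As for HSP90, PBS replicate 3 was the odd one: it was the lowest of all 21 libraries. Against PBS, Hspd1 differed by -0.34 with TTR-1236 (95% interval -0.76 to 0.09, limma adjusted p = 0.340) and by -0.35 with Reference 4 (-0.77 to 0.08, adjusted p = 0.357) at 2 µM. Without PBS replicate 3 the same differences were -0.66 and -0.67, past the threshold (limma adjusted p = 0.0124 and 0.0153), in the fit in which 16.4% and 13.2% of all genes passed. Hspe1, the co-chaperonin, had the narrowest range of the 7 genes, 258 to 356 CPM over 21 libraries, a ratio of 1.38 between highest and lowest, against 3.55 for Hsp90ab1. No difference of Hspe1 from PBS passed, and its group means lay between 281 ± 23.9 CPM with PBS and 321 ± 30.4 CPM with TTR-1236 at 2 µM. Neighbouring groups overlapped for all 3 genes, with the exception of Hspd1 in TTR-1236 at 0.2 µM and at 2 µM.

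**Figure D2:**
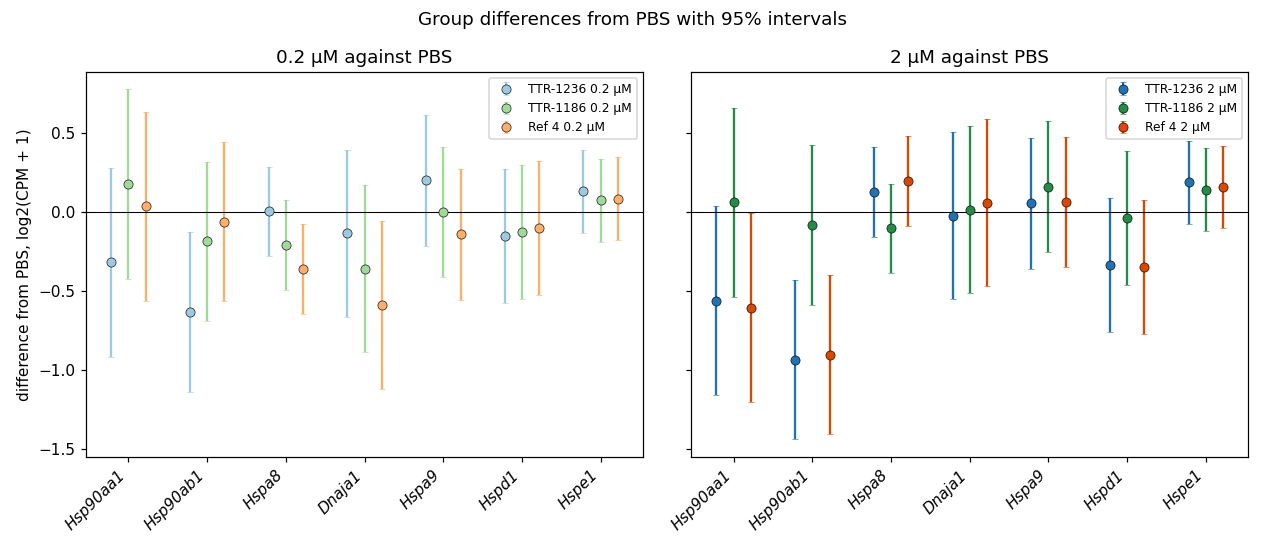
Difference from PBS of each gene in log2(CPM + 1), for 0.2 µM (left) and 2 µM (right), with 95% intervals from the limma fit on 21 libraries. At 2 µM Hsp90ab1 is at -0.94 with TTR-1236 and -0.90 with Reference 4, while TTR-1186 is at -0.08 and the intervals of Hspa8, Dnaja1, Hspa9 and Hspe1 include 0.

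The remaining comparisons with PBS called 0 of the 7 genes. The share of all genes that passed there was 0.0207% for TTR-1236 at 0.2 µM, 0.0311% for TTR-1186 at 0.2 µM, 0.166% for Reference 4 at 0.2 µM, 0.0518% for TTR-1186 at 2 µM and 0.0725% for the mean of the 6 treated groups, so that few genes of any kind passed. At an unadjusted p under 0.05 the counts were 1, 0, 2, 0 and 1 of 7, and edgeR and DESeq2 also called 0 of 7 in each. Of all genes, 6.89%, 9.61%, 14.8%, 9.22% and 13.3% had such an unadjusted p by limma, in the same order. Over the 7 genes the median difference was -0.02 with TTR-1236 at 2 µM, where that of all genes was -0.07, and 0.06 with Reference 4 at 2 µM, where that of all genes was -0.03. With PBS replicate 3 left out, Hsp90ab1, Hsp90aa1 and Hspd1 passed in the mean of the treated groups as well, and Hsp90ab1 passed with TTR-1236 at 0.2 µM; of all genes 6.62% and 0.652% passed there.

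Between doses, 2 of the 7 genes changed with Reference 4, in opposite directions. Hspa8 rose at 2 µM against 0.2 µM by 0.56 (SE 0.137, limma adjusted p = 0.0117), and Hsp90ab1 fell by 0.84 (SE 0.243, adjusted p = 0.0274). For both genes the 3 libraries at 2 µM and the 3 at 0.2 µM did not overlap. The share of all genes without overlap was not counted, here or for the other separations named. Of all genes, 28.1% had an unadjusted p under 0.05 (limma) between these doses. Of all genes, 12.8% passed in this comparison, so 2 of 7 is to be read against a high background. Dnaja1 was 0.65 higher (95% interval 0.12 to 1.18, limma adjusted p = 0.0951) and Hsp90aa1 0.64 lower (-1.24 to -0.04 as a difference, adjusted p = 0.148). These 2 groups also differed in depth (14158740 to 14971332 reads at 0.2 µM, 18802476 to 32927430 at 2 µM) and in mitochondrial ribosomal RNA (2.13% to 3.50% and 0.383% to 1.10%), whose part in the result was not tested. Without Reference 4 2 µM replicate 3 neither call held (limma adjusted p = 0.0765 for Hspa8 and 0.155 for Hsp90ab1), and that of Hsp90ab1 ended also without replicate 2 at 2 µM or replicate 1 or 2 at 0.2 µM. Of all genes, 2.15%, 6.53%, 7.16% and 5.68% passed in those fits, in that order. In a fit on the 6 libraries alone, 4 of the 7 passed, Hspa8, Hsp90ab1, Hsp90aa1 and Dnaja1, as did 17.2% of all genes.

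For the other agents 0 of 7 passed between doses by limma, edgeR or DESeq2, and 0 had an unadjusted p under 0.05 in limma, against 0.135% of all genes with TTR-1236 and 0% with TTR-1186. Hsp90ab1 differed there by -0.30 (95% interval -0.81 to 0.20) with TTR-1236 and by 0.10 (-0.40 to 0.61) with TTR-1186. A test of whether the dose difference itself differed between agents called 0 of the 7 genes in each of the 3 pairs of agents, and 0 of all genes. At an unadjusted p under 0.05 (limma) the counts were 0, 1 and 2 of 7, against 6.81%, 9.46% and 9.05% of all genes.

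Between agents at the same dose, 0 of 7 genes passed in all 6 comparisons by limma, and edgeR also called 0. DESeq2 called 1, Hsp90ab1 between TTR-1236 and TTR-1186 at 2 µM, where it called 3.17% of all genes. At an unadjusted p under 0.05 limma's counts were 2 between TTR-1236 and Reference 4 at 0.2 µM, 3 between TTR-1186 and Reference 4 at 2 µM, 2 between TTR-1236 and TTR-1186 at 2 µM, and 0 in the others. At 0.2 µM 0% of all genes passed by limma in each of the 3 pairs, and at 2 µM 0% passed between TTR-1236 and Reference 4. At 2 µM 0.373% passed by limma between TTR-1186 and Reference 4 and 0.342% between TTR-1236 and TTR-1186. Hsp90ab1 was 0.82 higher with TTR-1186 than with Reference 4 at 2 µM (95% interval 0.32 to 1.33, limma adjusted p = 0.174) and 0.86 lower with TTR-1236 than with TTR-1186 (-1.36 to -0.35 as a difference, adjusted p = 0.103). Fitted on the 6 libraries compared, both of these passed, as did Hsp90ab1 between TTR-1236 and Reference 4 at 0.2 µM. In those fits 0.352%, 0.197% and 5.17% of all genes passed. Between TTR-1236 and Reference 4 at 2 µM the 7 differences lay between -0.08 and 0.04, with a 95% interval for Hsp90ab1 of -0.54 to 0.47.

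The pseudogene of Hspa9 behaved unlike Hspa9. Hspa9-ps1 was read at 73.6, 42.9 and 16.9 CPM with PBS, at 3.60, 1.390 and 1.405 CPM with TTR-1236 at 2 µM and at 1.70, 2.31 and 0.64 CPM with Reference 4 at 2 µM. Neither group overlapped PBS, with or without PBS replicate 3, and the share of all genes without such overlap was not counted. At 0.2 µM its mean was 21.1 ± 3.89 CPM with TTR-1236, 40.8 ± 12.4 with TTR-1186 and 53.9 ± 16.8 with Reference 4, and with TTR-1186 at 2 µM it was 22.4 ± 13.1 CPM (SD, n = 3). Hspa9-ps1 fell by 3.70 with TTR-1236 at 2 µM (SE 0.465, limma adjusted p = 1.88e-04) and by 3.99 with Reference 4 at 2 µM (SE 0.465, adjusted p = 8.05e-05). In the same comparisons the parent differed by 0.06 (95% interval -0.36 to 0.47) and 0.06 (-0.35 to 0.48). Reads at the pseudogene came to 21.1% ± 16.4 of those at Hspa9 with PBS, 1.02% ± 0.835 with TTR-1236 at 2 µM and 0.694% ± 0.402 with Reference 4 at 2 µM (SD, n = 3).

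The nearer pseudogene of Hspd1 fell with TTR-1236. Hspd1-ps3, on chromosome 11 (41498737 to 41500458, plus strand), overlaps no other annotated gene. It was read at 112, 56.9 and 21.9 CPM with PBS, at 3.60, 4.23 and 8.99 CPM with TTR-1236 at 2 µM and at 24.7, 15.5 and 5.72 CPM with Reference 4 at 2 µM. The TTR-1236 libraries lay below all PBS libraries, and 1 of those of Reference 4 lay above PBS replicate 3. Hspd1-ps3 fell by 3.10 with TTR-1236 (SE 0.632, limma adjusted p = 0.0141), and the difference with Reference 4 was -1.90 (adjusted p = 0.103). Hspd1 differed by -0.34 and -0.35, without passing, as given above. The call with TTR-1236 ended without PBS replicate 1 (limma adjusted p = 0.0772) or PBS replicate 2 (0.0773). Of all genes, 0.507% and 0.476% passed in those fits, against 6.33% with all libraries. Reads at Hspd1-ps3 came to 15.5% ± 6.80 of those at Hspd1 with PBS, 1.97% ± 1.01 with TTR-1236 and 5.61% ± 3.90 with Reference 4 at 2 µM.

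**Figure D3:**
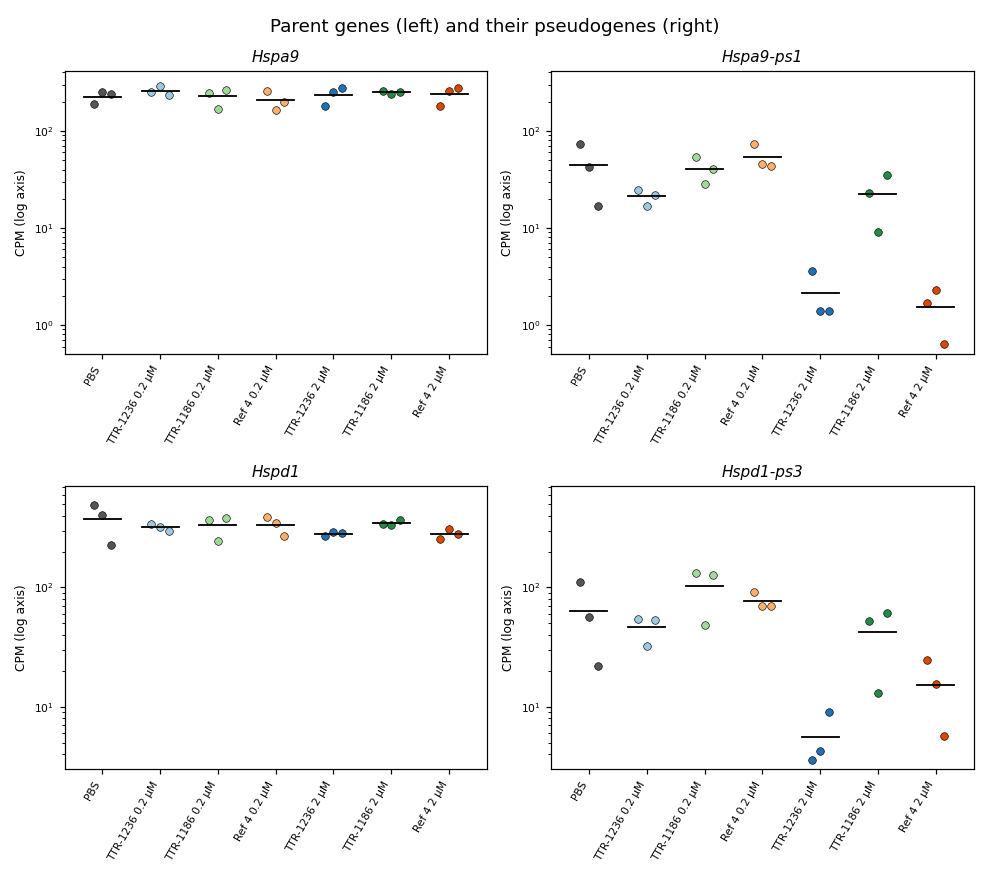
CPM (log axes, shared within a row) of Hspa9 and Hspd1 on the left and of Hspa9-ps1 and Hspd1-ps3 on the right; points are the 3 libraries of a group and lines the group means. Hspa9 lies between 166 and 289 CPM everywhere, while Hspa9-ps1 is at 3.60 CPM or less with TTR-1236 and Reference 4 at 2 µM.

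To compare each copy with its parent directly, the log2 ratio of pseudogene to parent was taken in each library and tested with an exact two-sided permutation test over libraries, adjusted over the 18 pseudogenes. For the 18 treated libraries against 3 PBS libraries, 0 of 18 ratios differed (adjusted p of at least 0.949, exact permutation of 1330 arrangements); 0 passed at an unadjusted p under 0.05. For the 9 libraries at 2 µM against the 9 at 0.2 µM, 11 of 18 ratios differed (exact permutation of 48620 arrangements), 9 lower and 2 higher at 2 µM. The ratio of Hspa9-ps1 to Hspa9 was 2.84 lower on the log2 scale and that of Hspd1-ps3 to Hspd1 was 2.14 lower (exact permutation p = 0.00041 and adjusted p = 0.0015 for each). Within each agent, the 3 libraries at 2 µM lay below the 3 at 0.2 µM for both ratios. The same held for 3 copies of Hspa8, Gm6210, Gm8337 and Gm7232. Of all 18 ratios, the doses did not overlap for 7 with TTR-1236, 9 with TTR-1186 and 13 with Reference 4. For Hspa9-ps1 the dose difference was -2.73 with TTR-1236, -1.14 with TTR-1186 and -4.65 with Reference 4, and for Hspd1-ps3 it was -2.71, -1.49 and -2.21. With 3 libraries against 3 the smallest exact permutation p is 0.1, so single groups could not pass. Against PBS, the ratio of Hspa9-ps1 to Hspa9 was -3.76 with TTR-1236 and -4.05 with Reference 4 at 2 µM, each at that smallest exact permutation p.

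The 18 copies fell into different patterns by parent. The 4 pseudogenes of Hsp90aa1 and the 2 of Hsp90ab1 showed no ratio that passed between doses (exact permutation, adjusted p from 0.189 to 0.690), though with Reference 4 the ratios of Gm12346, Gm5844 and Gm5511 at 2 µM lay below all those at 0.2 µM, by 0.42, 0.41 and 0.40 on average. Of the 6 pseudogenes of Hspa8, the abundant Gm15459 and Gm8355 had ratios 0.25 and 0.32 higher at 2 µM (exact permutation, adjusted p = 0.0458 and 0.0389). The sparser Gm6210, Gm8337 and Gm7232 had ratios 1.71, 2.67 and 2.79 lower (exact permutation, adjusted p = 9.9e-04 for each), and that of Gm5575 did not pass (exact permutation, adjusted p = 0.251). Some libraries at 2 µM were near the floor, with 8 reads at Gm6210, 0 at Gm8337 and 1 at Gm7232 in the lowest. The sizes of these falls therefore depend on the pseudocount of 1. Gm15459 overlaps an exon of Gm26825 on the opposite strand, and whether counting used strand is not given in the sources used here. All 3 pseudogenes of Dnaja1, Gm15542, Gm7816 and Gm6335, had lower ratios at 2 µM, by 0.63, 1.86 and 1.75 (exact permutation, adjusted p = 0.0239, 0.0239 and 0.0277). The second Hspd1 pseudogene, Gm5268, was 1.65 lower (exact permutation, adjusted p = 0.0015). It had 0 reads in TTR-1236 replicates 1 and 2 and TTR-1186 replicate 2 at 2 µM. In the fit across all genes, 3 of the 18 fell with TTR-1236 at 2 µM against PBS (Hspa9-ps1, Hspd1-ps3 and Gm7232), 1 with Reference 4 at 2 µM (Hspa9-ps1), and 6 fell and 2 rose with Reference 4 between doses. Of all genes, 6.33%, 2.25% and 12.8% passed in these comparisons. Calls among all measured pseudogenes were not counted, and ratios of other pseudogenes to their parents were not taken. Whether these shifts are particular to this family is therefore not known.

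**Figure D4:**
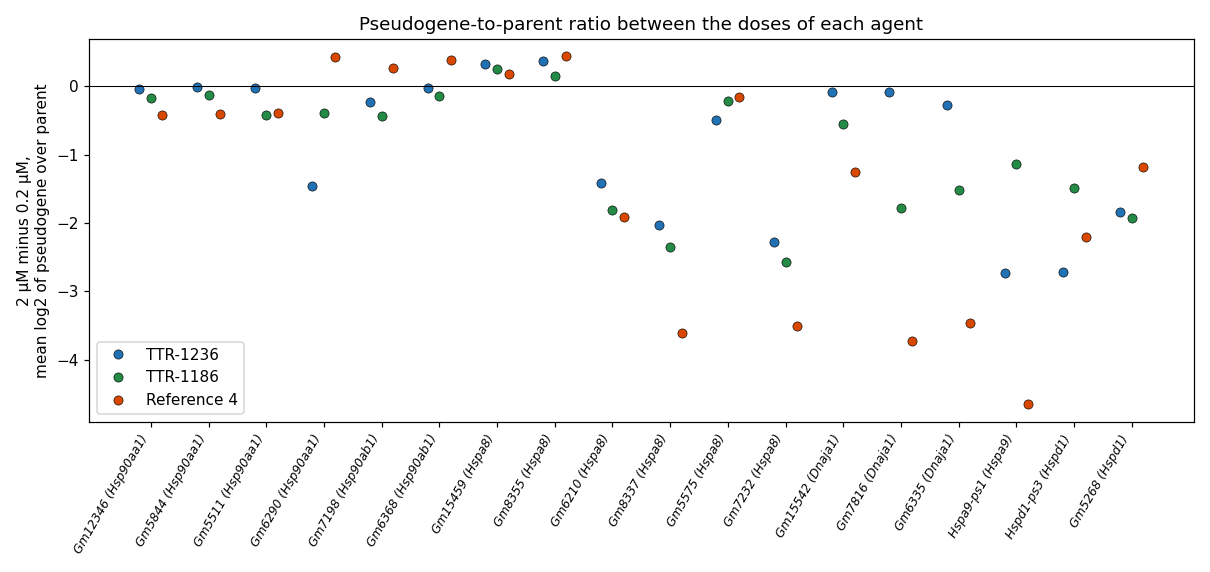
Difference between 2 µM and 0.2 µM in the mean log2 ratio of pseudogene CPM to parent CPM (pseudocount 1), for 18 pseudogenes with the parent in brackets and for each agent. Copies of Hsp90aa1 other than Gm6290 lie between -0.42 and -0.02, Gm15459 and Gm8355 lie above 0 for all 3 agents, and Hspa9-ps1 reaches -4.65 with Reference 4.

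Because copies hold a sizeable share of a family's reads, the level of a parent may depend on how shared reads were placed. Reads at pseudogenes made up 50.04% to 64.8% of all reads of the Hspa8 family in the 21 libraries, 32.4% to 49.8% for Hsp90aa1, 12.2% to 51.0% for Dnaja1, 1.32% to 28.2% for Hspd1, 0.231% to 28.1% for Hspa9 and 3.50% to 8.005% for Hsp90ab1. When each gene was summed with its copies, an alternative chosen after the data were seen, Hsp90ab1 differed by -0.93 with TTR-1236 at 2 µM (limma adjusted p = 0.0302) and Hspa8 by 0.65 between the doses of Reference 4 (adjusted p = 0.0163). Summed in this way, Dnaja1 was no longer higher with Reference 4 at 2 µM than at 0.2 µM, at -0.05 (limma adjusted p = 0.945), and Hspa9 turned from 0.06 to -0.20 with TTR-1236 and to -0.19 with Reference 4 at 2 µM against PBS, all short of the threshold. Hspe1 has no measured pseudogene, so no such sum could be made for it. Pseudogenes without a value were not aligned, so whether Hspe1 shares reads with a copy is not known.

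Across the 21 libraries, levels of several members moved with each other and with mitochondrial ribosomal RNA. In all, 12 such relations, picked after the values were seen, were computed on log2 values with 100000 permutations each. Because of that choice their p-values are no independent test, and shuffling the 21 libraries took no account of the 7 groups. How r with this RNA was spread over all genes was not computed. Hsp90aa1 and Hsp90ab1 had a Pearson r of 0.90 and a Spearman rho of 0.91 (permutation p = 1e-05 for each, the smallest that these permutations can give, adjusted 2e-05). Without the 2 libraries farthest from the median of Hsp90aa1 r was 0.88, and with group means taken out it was also 0.88. Hspd1 and its neighbour Hspe1, whose windows share the stretch printed above, went in opposite directions (r = -0.49, rho = -0.48, permutation p = 0.025 and 0.03, adjusted 0.027 and 0.033); r was -0.53 without 2 libraries, -0.19 among the 9 libraries at 2 µM and -0.87 among the 9 at 0.2 µM. With the share of mitochondrial ribosomal RNA, r was 0.85 for Hsp90aa1, 0.82 for Hsp90ab1, 0.64 for Hspd1 and -0.61 for Hspe1, and rho was 0.89, 0.84, 0.75 and -0.63 (adjusted permutation p of 0.0042 or less for each). For the other members r was -0.48 for Hspa8, -0.12 for Dnaja1 and -0.15 for Hspa9, with no test. Without the 2 libraries farthest in that share, r was 0.80, 0.75, 0.66 and -0.44, and with group means taken out it was 0.91, 0.78, 0.67 and -0.61.

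The pseudogenes of the mitochondrial chaperones were related to that share as well; whether more closely than to their parents was not tested. For Hspd1-ps3 r was 0.96 and rho 0.96, and for Hspa9-ps1 0.91 and 0.95 (permutation p = 1e-05, adjusted 2e-05 for each). Among the 9 libraries at 2 µM r was 0.90 and 0.81, among the 9 at 0.2 µM 0.93 and 0.88, and without the 2 libraries farthest in the share 0.97 and 0.88. With Hspa9, Hspa9-ps1 had r = -0.16 and rho = -0.26 (permutation p = 0.47 and 0.25), and with Hspd1, Hspd1-ps3 had r = 0.58 and rho = 0.68 (adjusted permutation p = 0.0066 and 0.0011). Without the 2 libraries farthest in the parent, these r were -0.04 and 0.57. Gm12346 followed Hsp90aa1 with r = 0.98 and rho = 0.98, and Gm15459 followed Hspa8 with r = 0.83 and rho = 0.80 (adjusted permutation p of 6.9e-05 or less); without 2 libraries r was 0.98 and 0.76. Copies of cytosolic members also moved with the share: r was 0.92 for Gm7232, 0.90 for Gm8337, 0.86 for Gm12346 and -0.71 for Gm15459, so the relation is not particular to the mitochondrial pair. The libraries of TTR-1236 and Reference 4 at 2 µM hold 6 of the 8 lowest shares of mitochondrial ribosomal RNA, and its part in the group differences of Hsp90ab1, Hspa9-ps1 and Hspd1-ps3 was not tested.

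**Figure D5:**
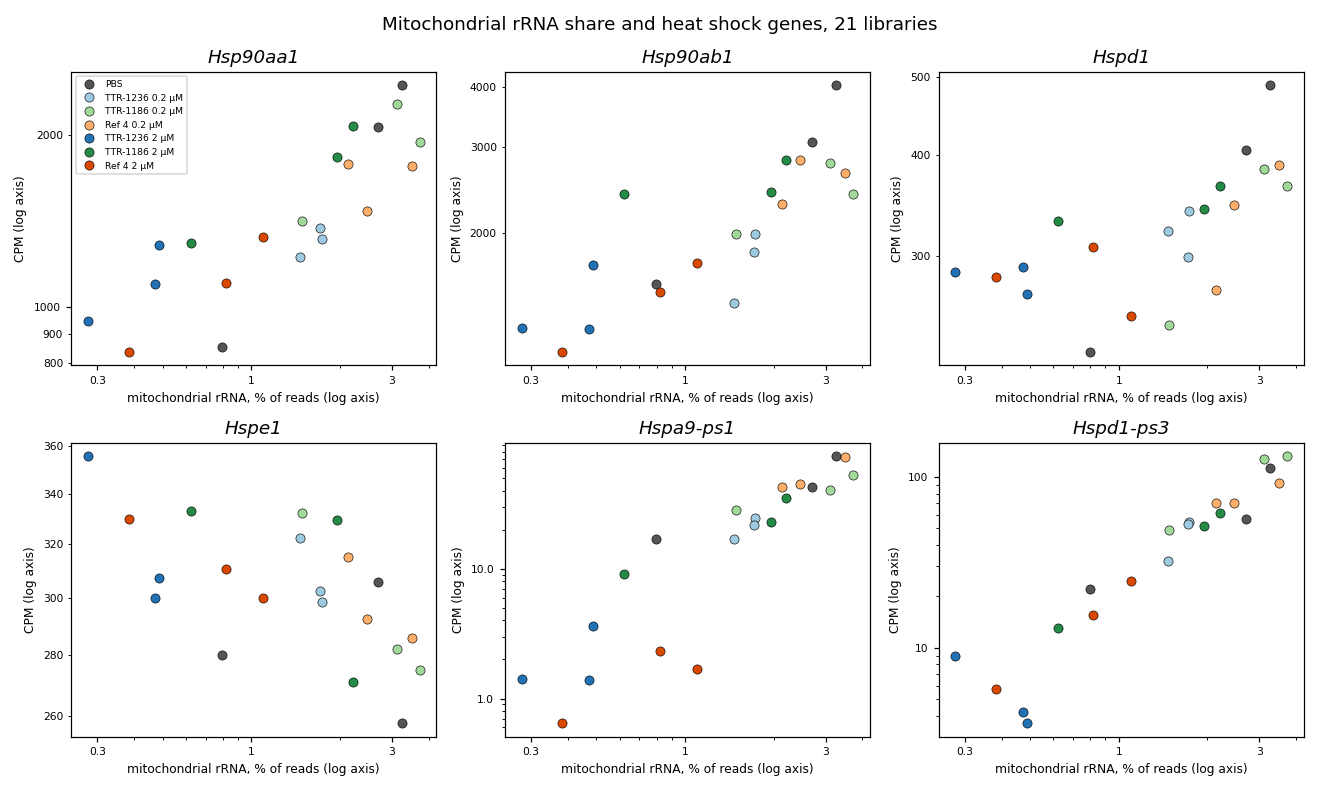
CPM of 4 members and 2 pseudogenes (log axes) against the percentage of reads in mitochondrial ribosomal RNA (log axis) in 21 libraries, coloured by group. Hsp90aa1, Hsp90ab1, Hspd1 and both pseudogenes are higher in libraries with a larger share, Hspe1 is lower (r = -0.61), and PBS replicate 3, at 0.797%, lies among the 2 µM libraries.

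The genes most like each member over the 21 libraries, by Pearson r of log2(CPM + 1) among genes whose mean reached 10 CPM and leaving out the member's own copies, share the libraries' depth and composition with it. They included Eprs (r = 0.93) and Mtdh (0.93) for Hsp90aa1, and were Mtdh (0.96), Fcf1 (0.94) and the pseudogene Cdv3-ps (0.94) for Hsp90ab1. For Hspa8 they were Alb (0.92), Gm45774 (0.89) and Cdc42ep4 (0.89), and for Dnaja1 Gatad1 (0.94), Ywhae (0.92) and Arl1 (0.91). Hspa9 was most like 4833439L19Rik (0.88), Gas6 (0.87) and Chmp5 (0.85), and Hspe1 most like Gstp2 (0.82), BC029722 (0.82) and Gstp1 (0.82). Hspd1 was the member whose nearest gene was another chaperone: Hspa4 (0.91), an HSP110-type exchange factor, ahead of Psmd11 (0.90) and Tpm4 (0.90). With group means taken out, Hspa4 again led for Hspd1 (0.94), Mtdh (0.96) for Hsp90aa1, Zc3h15 (0.93) for Hsp90ab1, Ugt2b5 (0.89) for Hspa8, Hnrnpa3 (0.96) for Dnaja1, Gm9844 (0.95) for Hspa9 and the pseudogene Gstp-ps (0.83) for Hspe1.

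Among the other genes of the chaperone network, few passed against PBS, and those that did passed with TTR-1236 or Reference 4 at 2 µM, where 6.33% and 2.25% of all genes passed. The counts below are to be read against these shares. Values that follow are for TTR-1236 at 2 µM unless another group is named. None of the 4 measured HSP70 and HSP110 relatives of 10 listed passed. Hspa4l was at 43.7 ± 20.8 CPM with PBS and 21.7 ± 2.14 CPM with TTR-1236 at 2 µM (limma adjusted p = 0.0836). Hspa4 was at 178 ± 73.1 CPM with PBS and 116 ± 22.8 CPM with TTR-1236 at 2 µM (limma adjusted p = 0.221), and the median of the 4 was -0.52 beside -0.07 for all genes. Of 17 cytosolic and nuclear J-domain proteins 2 fell, Dnajc13, which works on endosomes, by 1.85 (limma adjusted p = 0.0236) and Dnajc21, a ribosome assembly factor, by 1.02 (adjusted p = 0.0474), with a median of -0.34. Of 16 HSP90 co-chaperones 1 rose, the immunophilin Fkbp4, by 0.49 (limma adjusted p = 0.0447), from 118 ± 25.1 to 164 ± 6.17 CPM; the median was 0.10. Of 15 genes listed for the TRiC chaperonin and prefoldin 1 fell, Pfdn4, by 1.13 (limma adjusted p = 0.0358). None of 10 exchange factors and HSP70 partners passed, nor any of 4 small heat shock proteins measured of 9 listed. The same held for 17 other mitochondrial chaperones and proteases of 18 listed, and for 3 heat shock factors and regulators of 5 listed. Hsf1 was listed but had no value. With all treated groups averaged and set against PBS, the leading genes of these lists were Bag6 (0.55) and Bag4 (-0.45), Hspb1 (0.27) and Hspb6 (-0.16), Pam16 (0.31) and Dnajc15 (0.32), and Hsf4 (-0.89) and Hsbp1 (0.11), as log2 differences with limma adjusted p from 0.114 to 0.764. The mitochondrial list had a median of 0.14 with TTR-1236, 0.16 with TTR-1186 and 0.17 with Reference 4 at 2 µM, and of 0.17, -0.09 and -0.10 at 0.2 µM, with 8 to 14 of its 17 genes higher than with PBS.

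Of 15 measured heat-inducible targets of HSF1 outside the 7 genes, the polyubiquitin gene Ubb and Fkbp4 rose with TTR-1236 at 2 µM, and Ubb rose with Reference 4 at 2 µM. Ubb went from 300.0 ± 31.7 CPM with PBS to 562 ± 178 and 548 ± 67.7 CPM, by 0.86 in each comparison (limma adjusted p = 0.0141 and 0.0202). The list's medians were 0.03 and -0.08, beside -0.07 and -0.03 for all genes. Among 7 relatives in the endoplasmic reticulum, Hspa5 (BiP), the HSP70 of that compartment, fell by 0.69 with TTR-1236 (limma adjusted p = 0.0267) and by 0.74 with Reference 4 (adjusted p = 0.0328), from 824 ± 220 CPM with PBS to 502 ± 83.0 and 485 ± 83.8 CPM. In the 4 other comparisons of an agent and dose with PBS, 0 genes of these 10 lists passed. The comparisons with PBS share the 3 PBS libraries.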

How the data were processed

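Per the submitters' processing notes, reads were handled with cutadapt 1.15, HISAT2 2.1.0 and featureCounts and mouse build mm10; the order of steps, the annotation and the use of strand are not stated there. The values deposited by the authors are CPM, 1 file per library with 9657 genes. Low values were whole multiples of 1 read, and whole reads were recovered from every library (100.0% of values within 0.001 reads), 14158740 to 37410773 per library. Identifiers were matched to GENCODE M21 (GRCm38) for 9652 genes. The 7 genes, the gene lists and the tests were chosen with earlier results of these data known.

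Log2(CPM + 1) was fitted with limma 3.58.1 in R 4.3.3 on 21 libraries and 7 group means, with trend and robust settings, Benjamini-Hochberg adjustment over all genes and a threshold of 0.05. Sharing 1 spread over the groups gives each comparison of 3 libraries against 3 more residual degrees of freedom. Pseudogenes were assigned to parents with blastn 2.17.0+. Ratios of pseudogene to parent were compared by exact permutation over libraries. The scripts were tested on simulated data. Whether replicate numbers pair libraries was checked by correlating deviations from group means: all 3 same-numbered pairs had r over 0.1 for PBS with Reference 4 at 2 µM (0.102, 0.131 and 0.165) and for Reference 4 with TTR-1236 at 2 µM (0.289, 0.102 and 0.176), and for no other groups. Alternatives were other pseudocounts (0.5 and 5), a minimum mean of 10 CPM, TMM and DESeq2 scaling, edgeR 4.0.16 and DESeq2 1.42.0 on recovered reads, a replicate block, only the libraries compared, and leaving out each library; summing each gene with its pseudogenes was added after the data were seen. No 2 libraries of a group agreed within sampling noise (chi-square per degree of freedom of at least 25.1).

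Genes named are the 7 members, their pseudogenes, Ttr as the check of the labels, for each list those past the threshold against PBS or else the 2 with the smallest p for the mean of the treated groups, and the genes most correlated with each member, of which 1 is not reported here. The relations with mitochondrial ribosomal RNA were chosen after values were seen.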

Additional observations from a re-analysis of the deposited data

How the results depend on the processing

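Of the 7 genes, the number that passed with TTR-1236 at 2 µM against PBS was 1, beside 6.33% of all genes. It was 0 when only the libraries compared were fitted, beside 0.228% of all genes. Leaving out 1 library gave 0 to 3, beside 0.476% to 16.4% of all genes. With Reference 4 at 2 µM against PBS the number was 0, beside 2.25% of all genes. It was 1 (Hsp90ab1) with a pseudocount of 5, a minimum mean of 10 CPM, TMM or DESeq2 scaling, edgeR, DESeq2 or the replicate block. Of all genes, 2.58% (pseudocount of 5) to 7.54% (DESeq2) passed in those fits. Without 1 library the number was 0 to 3, beside 0.0621% to 13.2% of all genes. Leaving out 1 library gave 0 to 1 with TTR-1236 at 0.2 µM, beside 0.0104% to 0.652% of all genes. For all treated groups averaged it gave 0 to 3, beside 0.0311% to 6.62% of all genes. The highest counts came without PBS replicate 3. For Reference 4 between doses the number was 2, 4 with only the libraries compared, and 0 to 2 without 1 library. Of all genes, 12.8%, 17.2% and 2.15% to 11.9% passed in those fits. Fitting only the libraries compared gave 1 (Hsp90ab1) between TTR-1236 and Reference 4 at 0.2 µM, between TTR-1186 and Reference 4 at 2 µM and between TTR-1236 and TTR-1186 at 2 µM. Of all genes, 5.17%, 0.352% and 0.197% passed there. DESeq2 gave 1 between TTR-1236 and TTR-1186 at 2 µM, where it called 3.17% of all genes. The causes were not tested.

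Hspa9 against PBS at 2 µM, 0.06 with both agents, ranged from -0.070 to 0.230 with TTR-1236 and from -0.061 to 0.256 with Reference 4 when 1 library was left out, and was -0.197 and -0.193 when summed with its pseudogene, by construction adding that pseudogene's fall. Dnaja1 between the doses of Reference 4 was -0.049 when summed. Over 1890 refits of the 7 genes, 138 changed sign, none of them past the threshold in either fit. The ratios of Hspa9-ps1 and Hspd1-ps3 to their parents stayed lower at 2 µM than at 0.2 µM in each alternative run. Same-numbered libraries had r over 0.1 in 18 of 63 pairs (median 0.02), and in all 3 pairs for PBS with Reference 4 at 2 µM and for Reference 4 with TTR-1236 at 2 µM; the replicate block gave 1, 1 and 2 passing genes for TTR-1236 and Reference 4 at 2 µM against PBS and for the doses of Reference 4, and changed no other call among the values given. Scaling moved the median of all genes by at most 0.084 on the log2 scale. With 3 libraries a group, 1 library such as PBS replicate 3 decides several calls.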
